A study of Mus musculus with 81 samples.

Results

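MMERVK10 and RLTR10 are the 2 names that RepeatMasker gives to a group of endogenous retroviruses of the ERVK class in the mouse genome, and all loci whose species name begins with either were taken. They were 14693 of the 970384 loci of the LTR class in the RNA tables, 6294 of them internal regions and 8399 of them long terminal repeats (LTRs). RNA was measured in testicular cells of male mouse fetuses at the late fetal stage E18.5, in the F1 and F3 descendants of F0 dams that drank water with 50 nM tributyltin (TBT), an organotin biocide known as an obesogen, or with the vehicle DMSO. F1 fetuses were carried by the exposed dams, whereas F3 fetuses came from later breeding within each exposure group without further exposure. All mice were OG2 animals, which carry an EGFP transgene driven by the Pou5f1 promoter, so that germ cells are green, and fluorescence-activated sorting gave the EGFP-positive populations P4 and P5, which differ in side scatter, and the EGFP-negative somatic population P6. The numbers of libraries from descendants of DMSO- and TBT-exposed dams were 5 and 7 for F1 P4, 4 and 7 for F1 P5, 5 and 7 for F1 P6, and 4 and 5 for each of F3 P4, P5 and P6. DNA enriched with a methyl-CpG binding domain protein (MBD-seq) was measured in P6 cells, in 3 DMSO and 4 TBT libraries of F1 and in 5 DMSO and 7 TBT libraries of F3.

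An endogenous retrovirus enters the germ line as a provirus, in which an internal region coding for gag, pro and pol proteins lies between a pair of LTRs. The 5′ LTR holds the promoter and the 3′ LTR the polyadenylation signal, and recombination between both leaves a solitary LTR with no coding sequence. In most cells such elements are silenced by DNA methylation and by histone H3 lysine 9 methylation, which KRAB zinc finger proteins and TRIM28 direct to them. Male fetal germ cells are a special case, since they erase DNA methylation early and then restore it as arrested prospermatogonia, with DNMT3L and the piRNA pathway acting on retrotransposons.

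Shown are 5 of the 10 LTRs that were among the 3 with the highest level per kilobase outside genes in a population, taken from germ and from somatic cells, and the RLTR10 LTR that differed most between P5 and P4 cells in F1, since values of each are given below. Each line gives up to 300 bases of an LTR of GRCm38/mm10, read 5′ to 3′ along the element, except for RLTR10D, whose direction could not be set and which is given on the plus strand of the genome. Capitals mark AATAAA (the polyadenylation signal), TATAAA (the TATA box) and CCAAT (the box bound by NF-Y), each on either strand, and the first and the last of these overlap where CCAATAAA is written.
RLTR10D2 chr11:31549339-31549638 (plus strand): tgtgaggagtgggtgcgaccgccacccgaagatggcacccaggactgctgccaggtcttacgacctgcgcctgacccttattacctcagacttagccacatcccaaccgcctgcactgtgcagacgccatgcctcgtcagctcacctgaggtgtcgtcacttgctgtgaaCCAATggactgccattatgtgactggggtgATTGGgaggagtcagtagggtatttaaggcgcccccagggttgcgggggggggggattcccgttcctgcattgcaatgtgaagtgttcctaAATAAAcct
RLTR10D chr13:13544454-13544753 (plus strand): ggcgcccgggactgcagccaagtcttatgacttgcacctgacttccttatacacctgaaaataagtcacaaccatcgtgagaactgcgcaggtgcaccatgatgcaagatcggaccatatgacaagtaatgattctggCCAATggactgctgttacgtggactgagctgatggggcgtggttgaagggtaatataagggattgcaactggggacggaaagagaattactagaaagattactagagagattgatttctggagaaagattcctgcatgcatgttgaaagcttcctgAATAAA
RLTR10A chr15:66523944-66524243 (plus strand): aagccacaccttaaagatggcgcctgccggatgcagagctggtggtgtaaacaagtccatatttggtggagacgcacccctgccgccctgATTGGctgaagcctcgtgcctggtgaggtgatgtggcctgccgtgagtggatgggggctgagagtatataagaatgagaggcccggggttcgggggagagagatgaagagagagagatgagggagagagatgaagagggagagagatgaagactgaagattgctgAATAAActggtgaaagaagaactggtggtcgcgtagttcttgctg
RLTR10 chr12:22272190-22272489 (minus strand): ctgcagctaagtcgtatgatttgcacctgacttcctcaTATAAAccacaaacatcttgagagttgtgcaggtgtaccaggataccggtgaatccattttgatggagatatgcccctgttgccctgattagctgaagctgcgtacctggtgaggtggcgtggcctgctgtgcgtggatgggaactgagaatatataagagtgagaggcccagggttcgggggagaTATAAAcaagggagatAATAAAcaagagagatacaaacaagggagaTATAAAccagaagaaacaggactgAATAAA
RLTR10C chr11:3124927-3125226 (plus strand): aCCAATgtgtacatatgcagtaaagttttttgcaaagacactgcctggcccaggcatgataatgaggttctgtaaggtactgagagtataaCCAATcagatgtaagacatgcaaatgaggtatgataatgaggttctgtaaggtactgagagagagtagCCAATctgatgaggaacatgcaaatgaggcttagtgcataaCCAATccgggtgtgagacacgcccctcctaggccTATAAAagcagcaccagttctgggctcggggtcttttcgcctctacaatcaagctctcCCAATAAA
RLTR10E chr12:48554651-48554950 (plus strand): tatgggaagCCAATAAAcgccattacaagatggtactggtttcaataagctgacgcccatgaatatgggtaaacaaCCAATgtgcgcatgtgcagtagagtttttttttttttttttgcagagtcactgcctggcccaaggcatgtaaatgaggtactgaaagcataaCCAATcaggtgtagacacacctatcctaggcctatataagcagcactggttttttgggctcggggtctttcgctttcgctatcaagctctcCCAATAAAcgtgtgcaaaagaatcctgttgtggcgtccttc
The stretches held 12, 8, 10, 6, 4 and 8 CpG sites in the order given. The RLTR10 stretch held 3 copies of TATAAA on its own strand and the RLTR10C stretch held 1, while the other 4 held none on either strand. The RLTR10C stretch also held 5 copies of CCAAT on its own strand, and the RLTR10E stretch held 4.

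These letters are common in the group. Among member LTRs of 300 to 500 bp (6684 loci), AATAAA was found on either strand in 93.7%, CCAAT in 84.3% and TATAAA in 50.3%, against 49.2%, 53.0% and 29.3% of the 290191 other LTR loci of that length. TATAAA was present in 99.4% of RLTR10 LTRs but in 0.529% of RLTR10D2 LTRs. CAACNG, a core of the sites bound by MYB factors, was found in 66.5% of members against 43.1% of the others, and the related TAACNG in 21.2% against 33.0%. By species, CAACNG ran from 5.92% in MMERVK10D3_LTR to 100% in RLTR10B, and TAACNG from 1.97% to 70% in the same species. TGACGTCA, the cyclic AMP response element, was found in 0.0748% of members and 0.967% of the others. The median CpG density was 2.75 per 100 bp in member LTRs and 0.545 in the other LTRs.

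Internal regions fell under 3 names. MMERVK10C-int had 3226 loci of a median 320 bp and up to 7676 bp, RLTR10-int 2610 loci of a median 688 bp, and MMERVK10D3_I-int 458 loci of a median 372.5 bp. The LTRs were RLTR10 (2908 loci), RLTR10C (1775), RLTR10B2 (854), RLTR10A (787), RLTR10D (490), RLTR10F (482), RLTR10B (477), RLTR10E (227), RLTR10D2 (225) and MMERVK10D3_LTR (174). An LTR lay within 100 bp of an internal region of the same direction in 3122 cases, here called proviral. The other 5277 are called solitary, and include 29 LTRs near an internal region whose direction differed or could not be compared. The share of proviral LTRs ran from 58.4% for RLTR10 and 44.3% for MMERVK10D3_LTR to 19.2% for RLTR10B2 and 0% for RLTR10D. Complete proviruses, with an LTR at either end and at least 4000 bp between the starts of both, numbered 236 and spanned a median of 7087.5 bp. Outside annotated genes lay 11448 members (5081 internal regions and 6367 LTRs), 2799 lay in introns and 446 overlapped exons. Where direction could be set, intronic members ran against the gene more often than along it, at 63.9% of LTRs (1091 against 616) and 65.8% of internal regions (657 against 341).

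The libraries held between 246520 and 8161548 reads at LTR-class loci, of which members took 0.569 to 2.78%. In F3, the P4 libraries TBT 5 and TBT 9 and the P5 libraries TBT 5 and DMSO 2 had fewer than 2000000 reads. In F1 P6, the TBT libraries 7 and 8 stood apart with 6.79% and 6.95% of their reads outside genes, where the 10 remaining libraries had 1.82% or less. LTR-class loci lying in 9 germ cell genes, among them Dazl and Ddx4, had median summed values of 11806, 7899, 8180 and 4691 CPM (counts at a locus per library total, after the authors' TMM scaling) in F1 P4, F1 P5, F3 P4 and F3 P5 and of 29.9 and 21.8 in F1 and F3 P6, whereas the loci in 6 somatic genes had 35.9, 61.0, 20.2 and 38.1 in germ cells and 1123 and 1019 in P6. Dazl and Ddx4 loci were at 0 in 1 F3 P5 library. These values are shares of the reads at LTR-class loci, so fewer cells that hold an RNA and less of it per cell cannot be told apart.

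Outside genes, where no host transcript is annotated, MMERVK10 and RLTR10 RNA was found mainly in germ cells, and more in P5 than in P4. The level is the summed CPM divided by the summed length of the loci in kb. For internal regions its median over libraries was 0.110 per kb in F1 P4 (0.0913 to 0.149, n = 12), 0.337 in F1 P5 (0.235 to 0.639, n = 11) and 0.0193 in F1 P6 (0.00626 to 0.255, n = 12). The P4 and P5 libraries did not overlap, and neither overlapped with P6 once the TBT libraries 7 and 8 were set aside, which had 0.219 and 0.255 while the other 10 had 0.00626 to 0.0388. F3 had 0.179 in P4 (0.0964 to 0.272, n = 9), 1.04 in P5 (0.441 to 2.82, n = 9) and 0.0146 in P6 (0.00913 to 0.0223, n = 9), again with no overlap among the 3 populations. F1 and F3, and germ cells and P6, were scaled in separate tables, so their levels were set side by side and not tested.

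LTRs kept the same order at higher levels. Their medians outside genes were 0.211 (0.142 to 0.301), 0.451 (0.349 to 0.749) and 0.0378 (0.0170 to 0.322) per kb in F1 P4, P5 and P6, and 0.447 (0.190 to 1.30), 1.21 (0.468 to 3.02) and 0.0278 (0.0220 to 0.0431) in F3. In F1 no P4 library reached a P5 library, whereas in F3 the P4 and P5 libraries overlapped. The P6 values of TBT libraries 7 and 8 were 0.297 and 0.322, and those of the other 10 were 0.0170 to 0.0523. Reads at all LTR-class loci outside genes were also a larger share in P5, at 1.83 to 2.51% of reads in the F1 P4 libraries and 3.84 to 7.34% in those of P5. In F3 they were 2.05 to 12.1% in P4 and 6.06 to 31.1% in P5, which overlapped. Single libraries stood apart there, with 11.4 and 12.1% in P4 TBT 5 and 9 (2.05 to 5.10% in the other 7) and 23.5, 27.9 and 31.1% in P5 DMSO 1, DMSO 2 and TBT 5 (6.06 to 11.9% in the other 6). Other internal regions outside genes had 0.0516 to 0.0708 per kb in the F1 P4 libraries and 0.119 to 0.247 in those of F1 P5. The part of this shift of the whole class in the levels of members was not tested in F1 or F3.

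The group also stood differently to other LTR-class loci in germ and somatic cells. Internal members outside genes had a higher level per kb than other internal regions in each of the 41 germline libraries, with a median ratio of 1.82 in F1 P4 (1.66 to 2.30), 1.96 in F1 P5 (1.80 to 3.02), 1.80 in F3 P4 (1.11 to 3.23) and 2.71 in F3 P5 (2.13 to 4.29). In P6 the ratio was below 1 in each of the 21 libraries, with a median of 0.178 in F1 (0.0761 to 0.882) and 0.128 in F3 (0.0901 to 0.199). Member LTRs had ratios to other LTRs of 1.62, 1.63, 2.27 and 1.98 in F1 P4, F1 P5, F3 P4 and F3 P5, above 1 in each library, and of 0.707 and 0.690 in F1 and F3 P6, below 1 in each library. Without an element on chromosome 11 that led both classes in P4, the internal ratios in germ cells were 1.64, 1.88, 1.51 and 2.69, above 1 in each library.

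**Figure D1:**
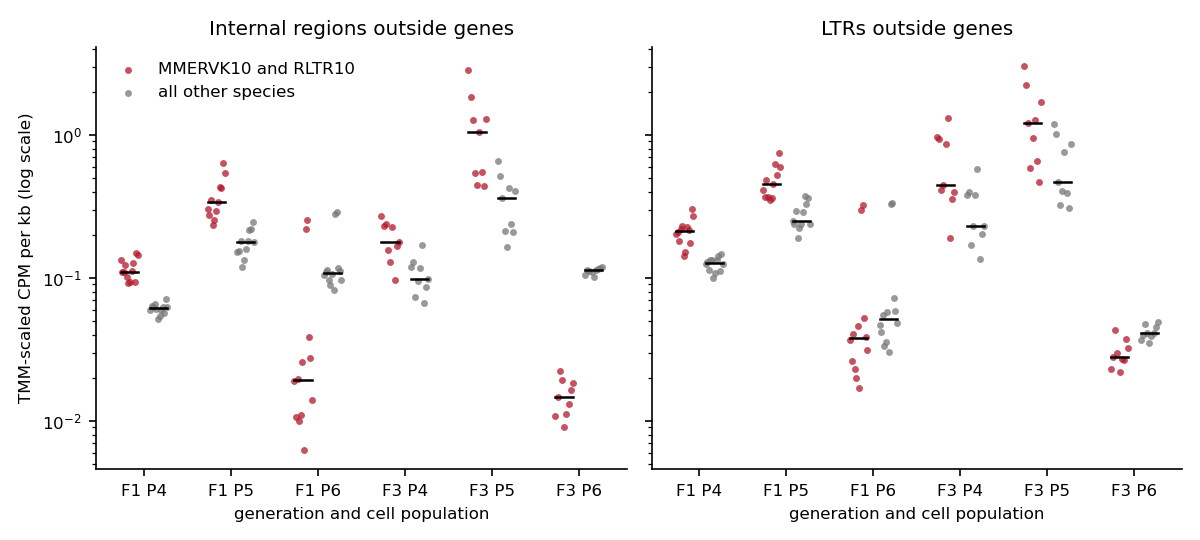
Level outside genes (TMM-scaled CPM per kb of locus, log axis) of MMERVK10 and RLTR10 internal regions and LTRs and of the other internal regions and LTRs, with 1 point per library, a line at the median, and columns by generation and population. The member medians lie above those of the other loci in P4 and P5 (0.110 against 0.0614 for internal regions in F1 P4) and below them in P6 (0.0193 against 0.109 in F1), and 2 F1 P6 libraries, TBT 7 and TBT 8, stand apart with 0.219 and 0.255 for internal members.

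The species of the group fell into 2 patterns. Outside genes, RLTR10D2 had the highest level per kb of the 13 species in all 4 germline populations, with medians of 2.24 in F1 P4, 2.50 in F1 P5, 4.26 in F3 P4 and 6.28 in F3 P5. MMERVK10D3_LTR (1.04, 1.58, 1.66 and 2.62) and the internal region that goes with it, MMERVK10D3_I-int (0.847, 1.08, 1.03 and 1.51), were also high in both P4 and P5. RLTR10D (0.595, 0.955, 1.19 and 2.45) and RLTR10A (0.407, 0.957, 1.13 and 2.44) came next in F1 and lay above MMERVK10D3_I-int in F3.

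The most numerous species were low in P4 and rose in P5. MMERVK10C-int had medians of 0.0387 in F1 P4 and 0.222 in F1 P5, and of 0.0872 in F3 P4 and 0.758 in F3 P5. RLTR10-int had 0.0324, 0.297, 0.0877 and 1.25, and the RLTR10 LTR 0.0517, 0.196, 0.174 and 0.616. The share of the RNA of a species that came from loci outside genes moved with it, from 10.97 to 42.1% for MMERVK10C-int and from 6.48 to 37.7% for RLTR10-int between F1 P4 and P5, and from 24.5 to 61.2% and 18.1 to 67.4% in F3.

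RLTR10C (0.0563, 0.238, 0.148 and 0.798), RLTR10B2 (0.114, 0.368, 0.313 and 1.32), RLTR10B (0.102, 0.328, 0.209 and 0.791), RLTR10F (0.159, 0.341, 0.359 and 0.910) and RLTR10E (0.265, 0.615, 0.538 and 1.35) lay between these extremes. In P6 the order was another one. RLTR10E had the highest level there, 0.128 per kb in F1 and 0.115 in F3, while RLTR10D2 had 0.0400 and 0.0161 and MMERVK10D3_I-int 0.0274 and 0.0131. A single RLTR10E locus, at chr12:48554651-48554974, carried much of this, with means of 4.84 CPM in F1 P6 and 3.89 in F3 P6. The whole species averaged 5.84 (DMSO) and 11.4 (TBT) outside genes in F1 P6, and 4.92 and 6.57 in F3 P6. In that locus 24% of the 50-base windows occur once.

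The species also differ in how well short reads can be placed on a single copy. The median share of 50-base windows that occur once in the genome was 3.33% in RLTR10, 11.1% in RLTR10-int, 21.9% in RLTR10C and 37.2% in MMERVK10C-int, against 76.0% in RLTR10D, 77.5% in MMERVK10D3_I-int, 84.9% in MMERVK10D3_LTR and 87.9% in RLTR10D2. RLTR10B had 23%, RLTR10B2 46.5%, RLTR10A 58.4%, RLTR10F 61.6% and RLTR10E 79.0%. The 4 species with the highest levels in F1 P4 were among the 5 with the most unique windows, of which RLTR10E had the lower level of 0.265. The part of read placement in these levels was not tested, since the authors' treatment of reads that match several loci is not given in the sources used here.

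**Figure D2:**
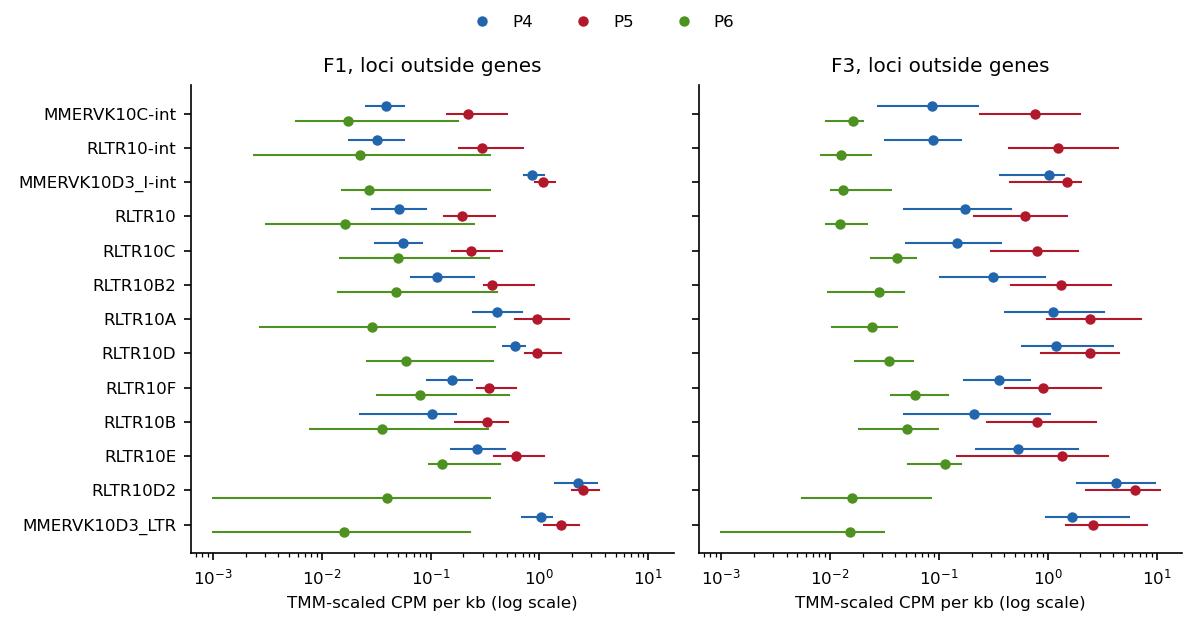
Level outside genes (TMM-scaled CPM per kb, log axis) of each of the 13 species in P4, P5 and P6, with F1 and F3 in separate panels, where points are medians over libraries and bars run from the lowest to the highest library, and values of 0 are drawn at 0.001. RLTR10D2 has the highest medians in P4 and P5 (2.24 and 2.50 in F1), and RLTR10E in P6 (0.128 in F1), where a single locus carries much of its level.

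In P4, and also in F3 P6, few loci made up much of the signal. Over all libraries, 13 internal loci held 50% of the internal RNA outside genes in F1 P4 and 17 in F3 P4, whereas 157 and 164 were needed in F1 and F3 P5. For LTRs the counts were 94 and 109 in P4 and 319 and 281 in P5. In F3 P6 they were 39 internal loci and 32 LTRs, and in F1 P6, with TBT libraries 7 and 8 included, 281 and 302. Reads were seen in at least 1 library at 20.02% of the internal loci outside genes in F1 P4 and 18.9% in F3 P4, and at 67.4% and 64.8% in P5. LTRs had 31.4 and 35.3% in P4 and 67.0 and 66.5% in P5. In P6 the shares were 33.95% of internal loci and 26.8% of LTRs in F1, 14.6% and 11.4% there without the TBT libraries 7 and 8, and 11.2% and 8.50% in F3.

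One element led both classes in P4 and in F1 P5. The MMERVK10D3_I-int locus at chr11:31548975-31549338 held 12.1% of the internal RNA outside genes in F1 P4 and 12.5% in F3 P4, and 2.92% in F1 P5, whereas in F3 P5 the internal locus with the largest share was the RLTR10-int at chr15:45476956-45477149 with 1.31%. Directly downstream lies its 3′ LTR, the RLTR10D2 at chr11:31549339-31549682 whose sequence opens the list above, and the nearest gene, Bod1, a regulator of chromosome biorientation, is 115843 bp away. In F1 P4 the internal locus had 55.7, 66.4, 39.7, 21.2 and 51.7 TMM-scaled CPM in the DMSO libraries and 28.8 to 118 (median 55.7) in the TBT libraries, so that both groups overlapped. In F1 P5 it had 28.9, 37.3, 44.8 and 68.3 in the DMSO libraries and 23.7 to 82.6 (median 44.6) in the TBT libraries. P4 and P5 had like ranges at this locus, unlike most internal members, and P6 had at most 2.44.

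The same held in F3. There the internal locus had 156, 158, 79.7 and 78.7 in the DMSO libraries of P4 and 29.1, 124, 52.2, 120 and 92.5 in the TBT libraries, and 71.4, 69.0, 58.5 and 60.2 (DMSO) and 16.3, 45.1, 36.6, 35.0 and 141 (TBT) in P5. The RLTR10D2 LTR beside it moved in step, with means per kb of 98.4 in F1 P4, 84.7 in F1 P5, 319 in F3 P4 and 192 in F3 P5. It had 39.5, 40.3, 20.8, 10.6 and 36.1 in the DMSO libraries of F1 P4 and 17.5 to 66.6 (median 32.6) in the TBT libraries, and 173, 179, 59.3 and 80.8 (DMSO) and 78.6, 192, 34.8, 103 and 88.5 (TBT) in F3 P4. The DMSO and TBT libraries overlapped at both loci in each of these populations.

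Other loci with high levels per kb in germ cells differed in where they were seen. MMERVK10C-int at chr9:4260906-4261245 had means of 6.87, 9.98 and 16.9 TMM-scaled CPM in F1 P4, F1 P5 and F3 P4, and the RLTR10D LTR at chr13:13544421-13544812 had 9.89 in F1 P4 and 11.7 in F1 P5. The latter was at 0 in all 21 libraries of P6. The RLTR10A LTR at chr15:66523944-66524262 had means of 4.29, 9.49, 8.81 and 21.3 in F1 P4, F1 P5, F3 P4 and F3 P5 and at most 1.02 in P6. A pair of internal loci were among the highest per kb in F3 P5 alone. RLTR10-int at chr3:98825156-98825509 had at most 4.89 in F3 P4 and 0.923 to 112 (median 9.08, n = 9) in F3 P5, where the highest value came from TBT 5, a library under 2000000 reads. MMERVK10C-int at chr18:11747285-11747486 had at most 1.47 in F3 P4 and 3.92 to 37.7 (median 16.7) in F3 P5. RLTR10D at chr16:90715846-90716199, 3113 bp from Mis18a, which loads the centromeric histone, had 34.8, 22.98, 13.04 and 10.7 in the DMSO libraries of F3 P4 and 87.4, 63.9, 6.97, 10.8 and 14.2 in the TBT libraries. The 2 high TBT values came from TBT 5 and TBT 9, the libraries under 2000000 reads.

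Other loci led in P6. The RLTR10E LTR at chr12:48554651-48554974, next to the pseudogene Gm1818, had 3.38, 3.00, 4.16, 5.78 and 5.15 in the F1 P6 DMSO libraries and 3.08 to 6.72 (median 5.37) in the TBT libraries, with 2.78, 2.70, 2.48 and 4.53 (DMSO) and 3.68, 4.96, 5.77, 4.63 and 3.52 (TBT) in F3 P6. RLTR10C at chr11:3124853-3125251, 653 bp from the transcribed pseudogene Pisd-ps1, was present in all 3 populations. In F3 it had 19.5, 27.9, 5.66 and 10.05 in the P4 DMSO libraries, 72.9, 65.2, 14.8 and 10.8 in those of P5 and 3.37, 6.08, 9.92 and 8.47 in those of P6. MMERVK10C-int at chr5:26073833-26074764 had 3.37, 6.30, 2.23 and 4.14 in the F3 P6 DMSO libraries and 2.76, 1.55, 2.21, 3.99 and 7.03 in the TBT libraries, and 0 in all F3 P4 libraries.

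Whole proviruses were not where the level was highest. Internal regions in complete proviruses had a lower level per kb than those in incomplete copies in each library, with median ratios of 0.381, 0.361 and 0.366 in F1 P4, P5 and P6 and of 0.367, 0.401 and 0.392 in F3. Proviral LTRs had 0.730, 0.70 and 0.662 of the level of solitary LTRs in F1 P4, P5 and P6 and 0.654, 0.746 and 0.714 in F3, below 1 in all libraries but 1 of F1 P6. By species, 6 LTR species were compared, and in P4 the proviral median was the lower one in 5 of them in both generations. MMERVK10D3_LTR was the exception, with 1.73 per kb in proviral and 0.426 in solitary copies in F1 P4 and 2.62 and 1.05 in F3 P4, and it kept that order in P5 with 2.34 and 1.06 in F1. In P5 the proviral median was the higher one in RLTR10B2 also, with 0.425 against 0.363 in F1 and 1.87 against 1.32 in F3, and in F3 in RLTR10C, with 0.804 against 0.795. Windows of 50 bases that occur once made up a median of 16.8% of internal regions in complete proviruses against 37.8% in incomplete copies, and 9.02% of proviral against 43.1% of solitary LTRs, so the part of read placement in these ratios was not tested.

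Among proviral LTRs, the 3′ LTR carried more RNA than the 5′ LTR in P4 and not in P5. The ratio of the 5′ to the 3′ LTR was 0.497 in F1 P4 (0.372 to 0.615, below 1 in 12 of 12 libraries) and 0.496 in F3 P4 (0.386 to 0.679, below 1 in 9 of 9). In P5 it was 1.03 in F1 (0.752 to 1.36) and 1.29 in F3 (0.971 to 1.55), and no P4 library reached a P5 library in either generation. In P6 it was 0.860 (0.277 to 1.49) and 1.27 (0.550 to 1.78). The leading element on chromosome 11 weighed on this, since its LTR is a 3′ LTR. Without that element, left out after its values were seen, the ratio was 0.674 in F1 P4 (0.530 to 0.996) and 1.28 in F1 P5 (0.996 to 1.60), and 0.855 in F3 P4 (0.531 to 1.32) and 1.49 in F3 P5 (1.31 to 1.72), so that the lowest P5 library met the highest P4 library.

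Members inside genes had far higher levels per kb, and many of them had the same counts as a neighbouring locus. Intronic LTRs running against the gene had 5.99, 5.38 and 6.66 per kb in F1 P4, P5 and P6 and 7.04, 6.14 and 6.76 in F3, and those running along it 5.45, 4.72 and 4.45 and 6.76, 6.27 and 4.33. Intronic internal regions had 1.19 to 2.51 along the gene and 1.37 to 2.06 against it. Of intronic members with at least 50 reads in a table, 19.9% in F1 germ cells and 45.3% in F1 P6 had in every library the same read count as another LTR-class locus 1000 to 100000 bp away, and 17.0 and 46.3% did in F3. Outside genes this was true of 3 of 663, 0 of 14, 3 of 1217 and 0 of 21 members, so intronic loci are not independent measurements.

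The comparison of P5 with P4 asked how both germ cell gates differ, and it was made within each generation on the log2(value + 1 read) scale with limma. Summed over all loci of a species, MMERVK10C-int rose by 0.71 (SE 0.09, adjusted p = 7.52e-07) and RLTR10-int by 0.70 (SE 0.09, adjusted p = 2.76e-07) in F1 P5. MMERVK10D3_LTR (0.65), RLTR10E (0.44), RLTR10D (0.43), RLTR10A (0.37), MMERVK10D3_I-int (0.35) and RLTR10B2 (0.24) also rose past an FDR of 0.05, of which MMERVK10D3_I-int (0.22, adjusted p = 0.0696) and RLTR10B2 (0.14, adjusted p = 0.0547) did not pass in DMSO libraries alone. RLTR10 (-0.0037), RLTR10B (-0.14), RLTR10C (-0.03), RLTR10D2 (0.09) and RLTR10F (0.0095) did not pass. With the label number that P4 and P5 libraries share as a block, RLTR10B passed (-0.15, limma adjusted p = 0.0018). Over all 677 species tested, 161 rose and 289 fell, and the median was -0.06. With every library set to the same total this balance turned, with 324 species risen, 124 fallen and a median of 0.09, and RLTR10 (0.15, adjusted p = 8.47e-06), RLTR10C (0.13), RLTR10D2 (0.24) and RLTR10F (0.17) then passed too, while RLTR10B (0.02) did not.

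Over loci outside genes alone most differences were larger, while those of MMERVK10D3_LTR and MMERVK10D3_I-int stayed about the same. There RLTR10-int rose by 3.33 and MMERVK10C-int by 2.64 in F1, RLTR10C by 2.16, RLTR10 by 2.03, RLTR10B by 1.94 and RLTR10B2 by 1.89, beside a median of 1.30 over 663 species, of which 585 rose. RLTR10A (1.24), RLTR10F (1.24), RLTR10E (1.19), RLTR10D (0.68), MMERVK10D3_LTR (0.66) and MMERVK10D3_I-int (0.35) rose by less than that median. RLTR10D2, with 0.27 (adjusted p = 0.0617), did not pass. The 4 species with the highest P4 levels in F1 were the 4 with the smallest differences, which rest on the same P4 values.

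In F3 the internal regions led again. Summed over all loci, RLTR10-int rose by 2.01 (adjusted p = 0.0002) and MMERVK10C-int by 1.39 (adjusted p = 0.0031), and these were 2 of the 17 species of 677 that passed in limma. With a common total 127 species passed, among them RLTR10B2 (0.93, adjusted p = 0.0239), RLTR10C (0.42) and MMERVK10D3_I-int (0.74), and without the 4 libraries under 2000000 reads 166 passed, among them RLTR10B2 (0.66, adjusted p = 0.0429), RLTR10E (0.76, adjusted p = 0.0301) and MMERVK10D3_I-int (0.50). Outside genes RLTR10-int rose by 3.71, MMERVK10C-int by 2.85, RLTR10C by 2.14, RLTR10B2 by 1.88, RLTR10B by 1.51, RLTR10 by 1.48, RLTR10F by 1.25 and RLTR10A by 1.04, beside a median of 1.35 over 661 species. RLTR10E, RLTR10D, RLTR10D2, MMERVK10D3_LTR and MMERVK10D3_I-int did not pass.

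Single loci were tested where their mean over both gates was at least 5 reads, which 876 members passed in F1. A member near 0 in P4 could pass through its P5 reads alone, so the counts describe the loci tested and not the group. In F1, 259 members rose (17.6% of all LTR-class loci tested rose) and 114 fell (21.6% of all fell), and with every library set to the same total 298 rose and 65 fell, where all loci went from 17882 risen and 21933 fallen to 21488 (21.0%) and 11642 (11.4%). That scaling moved the median of all loci from -0.11 to 0.04. With DMSO libraries alone, which are fewer, 88 members rose and 29 fell, where 12.4% of all loci passed. Of members of all kinds, 428 had an unadjusted p under 0.05, and edgeR's quasi-likelihood test called 360 members and 38.2% of all loci. Internal regions outside genes gave 94 risen and 0 fallen of 137, with a median of 2.22. Other internal regions there gave 656 risen and 21 fallen of 1043, with a median of 1.73. LTRs outside genes gave 36 risen and 2 fallen of 109 (median 0.58), and other LTRs 1152 risen and 122 fallen of 3276 (median 0.57). In introns members moved both ways, with 31 risen and 34 fallen of 169 internal regions and 71 risen and 74 fallen of 380 LTRs.

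In F3, 181 of 1548 members tested rose (1.00% of all loci tested rose) and 0 fell in limma (0.0112% of all fell), where 557 members had an unadjusted p under 0.05 and edgeR's quasi-likelihood test called 414 risen and 1 fallen (4.98% and 0.0724% of all). The count of 181 ran from 97 (without P4 DMSO 3) to 335 (without P5 TBT 5) when 1 library was left out, and it was 19 with DMSO libraries alone. Internal regions outside genes gave 136 risen of 452 (median 2.37), beside 181 of 2369 other internal regions (median 1.52). LTRs outside genes gave 14 risen of 356, internal regions in introns 19 of 214 and LTRs in introns 5 of 405. Without the 4 libraries under 2000000 reads, 211 of 493 internal regions outside genes rose, beside 476 of 2574 others. Among the 745 members tested in both generations, 61 rose in both, which is 23.6% of those that rose in F1 and 33.7% of those that rose in F3. Over all 81490 loci tested in both, 489 rose in both, 2.73% of those risen in F1 and 49.7% of those risen in F3. Of these 61, 55 were internal regions and 51 lay outside genes.

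Some loci separated both gates completely. Those named below were picked for that, and the risen ones were at or near 0 in most P4 libraries. Their differences therefore rest largely on the 1 read added to each value, and their p-values are no support for a change. The P5 libraries lay above all P4 libraries at 34 of the 259 members risen in F1 and at 24 of the 181 risen in F3, and below them at 3 of the 114 fallen in F1. Over all loci tested the same was true of 2136 of 17882 risen in F1 (2.11% of the loci tested), of 92 of 983 risen in F3 (0.0938%) and of 764 of 21933 fallen in F1 (0.753%), so that 13.1% and 13.3% of the risen members stood beside 11.9% and 9.36% of all risen loci. The RLTR10 LTR at chr12:22272130-22272531, the 5′ LTR of an MMERVK10C-int copy, had 0, 0, 0, 0 and 0.457 in the P4 DMSO libraries of F1 and at most 0.342 in those of TBT, and 3.59, 8.17, 12.6 and 5.38 (DMSO) and 4.13 to 14.4 (TBT, median 8.13) in P5. It rose by 4.70 (SE 0.31, adjusted p = 2.07e-14), and 12.5% of its 50-base windows occur once. Its sequence in the list above holds 3 copies of TATAAA on its own strand.

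RLTR10-int at chr15:45476956-45477149 stood out in both generations. It lies 362036 bp from Kcnv1, which codes for a potassium channel subunit, and all its 50-base windows occur once. In F1 it had 3.10, 0, 0, 3.45 and 0 in the P4 DMSO libraries, at most 0.712 in the P4 TBT libraries, and 14.1, 10.97, 11.02 and 5.21 (DMSO) and 6.19 to 14.0 (TBT, median 9.06) in P5. In F3 the P4 libraries had 0, 3.91, 0 and 0 (DMSO) and 0, 0, 0, 0 and 0.932 (TBT), and the P5 libraries 105, 159, 40.2 and 5.54 (DMSO) and 73.7, 61.8, 37.6, 12.8 and 64.1 (TBT). The difference was 4.46 (SE 0.41, adjusted p = 1.61e-10) in F1 and 6.69 (SE 0.85, adjusted p = 7.04e-05) in F3, while all P6 libraries were at 0. Most F3 P4 libraries were at 0 too, so the size of the F3 difference depends on the read added before log2.

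A pair of further RLTR10-int loci had the next differences in F3. At chr19:9597808-9597998 the P4 libraries had at most 0.565, and the P5 libraries had 99.5, 63.4, 28.9 and 12.2 (DMSO) and 1.91, 26.4, 19.15, 9.95 and 68.1 (TBT), a difference of 6.10 (SE 0.80). At chr13:88760215-88760398, 61074 bp from Edil3, which codes for an integrin-binding matrix protein, P4 had at most 0.978 and P5 had 97.5, 126, 18.7 and 7.39 (DMSO) and 5.74, 17.3, 11.05, 4.01 and 27.6 (TBT), a difference of 5.72 (SE 0.79). In F1, MMERVK10D3_I-int at chr15:3940638-3943128 (2491 bp) was at 0 in all 12 P4 libraries and had 9.81, 1.40, 8.44 and 0.841 (DMSO) and 4.70 to 9.54 (TBT, median 7.30) in P5. Its adjusted p in limma was 3.35e-12, but it met the filter through its P5 reads alone and was picked for not overlapping. That p-value is therefore no support for a change, and no fold is given against libraries at 0.

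The 3 loci that fell without overlap in F1 were all intronic. RLTR10B2 at chrX:94403272-94403615, in Apoo, a gene of the mitochondrial inner membrane, had 54.4, 50.7, 47.1, 50.3 and 53.1 in the P4 DMSO libraries and 43.1 to 60.0 (median 50.0) in the TBT libraries, and 33.7, 26.1, 36.7 and 28.1 (DMSO) and 24.7 to 41.2 (TBT, median 34.3) in P5. It fell by 0.68 on the log2 scale (SE 0.09, adjusted p = 4.90e-07). The other two were RLTR10C copies in Prim2, the gene of the large primase subunit, with differences of -0.72 and -0.71, of which 5.01% and 5.48% of the 50-base windows occur once.

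**Figure D3:**
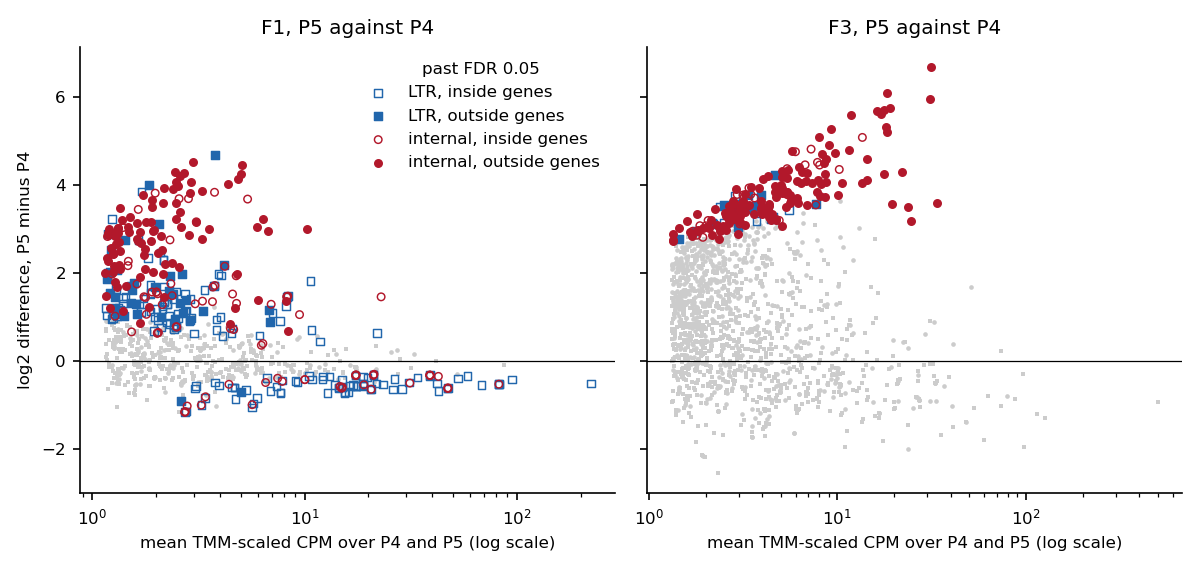
Log2 difference between P5 and P4 against the mean level (TMM-scaled CPM, log axis) of each member locus tested, with F1 and F3 in separate panels and members past an FDR of 0.05 in limma in colour. In F1 259 members rose and 114 fell, and in F3 181 rose and 0 fell.

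The comparison of descendants of TBT- and DMSO-exposed dams was made within each population. In F1 P4, P5 and P6, 0 members passed an FDR of 0.05 in limma of 677, 1359 and 632 tested, where 0%, 0.0106% and 0.00341% of all loci passed. In F3 P4, P5 and P6, 0 passed of 911, 1950 and 756, where 0%, 0% and 0.0343% of all loci passed. An unadjusted p under 0.05 was found for 58, 163 and 19 members in F1 and for 39, 63 and 65 in F3. The likelihood ratio test of edgeR on the recovered reads, the test used by the study, called 2, 14, 1, 0, 78 and 0 members, while it called 0.0939%, 0.317%, 0.0523%, 0.00347%, 3.15% and 0.338% of all loci tested. Of the 78 members in F3 P5, which are 4% of those tested, 13 were higher and 65 lower in TBT (83.3% lower), and of all 3326 loci called there 680 were higher and 2646 lower (79.6% lower). DESeq2 called 1 member in F1 P5 and 0 in the other 5 populations, and of all loci 0.00437%, 0.114%, 0.00682%, 0.0139%, 0% and 0.0801%.

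The medians of the members tested were near those of all loci in most populations. They were 0.02 beside 0.04 in F1 P4, 0.16 beside 0.03 in F1 P5, -0.01 beside -0.04 in F1 P6, -0.57 beside -0.69 in F3 P4 and 0.07 beside 0.02 in F3 P6. In F3 P4 edgeR's likelihood ratio test gave -0.25 beside -0.20, and DESeq2 0.06 beside 0.06. With DESeq2 the member median also changed sign in F1 P4 (-0.02) and F1 P6 (0.05), and not in the other populations. In F3 P5 they went apart, with -0.59 for members and 0.15 for all loci. In F1 P5, 48 members passed when loci of low values were kept in the fit, 41 of them internal regions, out of 10403 members and beside 0.202% of all 493550 loci then tested.

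Summed by species, 0 of the 13 passed in limma in any population, and an unadjusted p under 0.05 was found for MMERVK10D3_I-int in F1 P5 (0.25, adjusted p = 0.901), for RLTR10 and RLTR10-int in F1 P6 (0.10 and 0.27, adjusted p = 0.735), and for RLTR10 (0.08), RLTR10D2 (-0.20, adjusted p = 0.317) and RLTR10E (-0.18, adjusted p = 0.473) in F3 P6. With loci outside genes alone, RLTR10 and RLTR10E in F3 P6 had -0.16 and 0.46, the opposite direction, as had 10 of the 13 species there. The difference between the TBT effects in P5 and P4 was tested as an interaction, and 0 of 677 species passed in either generation, with 17 (F1) and 2 (F3) at an unadjusted p under 0.05.

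The summed levels of each class overlapped between the exposures in every population. In F1 P5, internal regions outside genes summed to 1224 ± 204 TMM-scaled CPM in the DMSO libraries (SD, n = 4; 986 to 1472) and to 1748 ± 573 in the TBT libraries (SD, n = 7; 1066 to 2677), a log2 ratio of 0.51. In F3 P5 the order was the opposite, with 6769 ± 4029 (SD, n = 4; 2259 to 11796) against 3164 ± 1635.1 (SD, n = 5; 1849 to 5435) and a log2 ratio of -1.10. It ran from -1.39 (without DMSO 4) to -0.69 (without DMSO 1) when 1 library was left out. Of all LTR-class reads, 23.5% and 27.9% lay outside genes in DMSO 1 and 2, 31.1% in TBT 5, and 6.06 to 11.9% in the other F3 P5 libraries. The part of this spread in the ratio was not tested. The F1 germline libraries carry leading label numbers that fall in 1 exposure each, 43, 44 and 48 in DMSO and 45 and 47 in TBT, and the F1 P5 difference lay in 1 of them. The 3 libraries numbered 45 summed to 1066 to 1412, within the DMSO range, and the 4 numbered 47 to 1788 to 2677, above all DMSO libraries. LTRs outside genes had 793 to 1026 and 1183 to 1703 in these TBT libraries, against 831 to 1094 in DMSO. What the leading number stands for is not given in the sources used here, and it cannot be told apart from exposure. In both generations the difference of the means was smaller than the SD of the group that spread more (TBT in F1, DMSO in F3) and larger than that of the other group.

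F1 P6 shows how far 2 libraries can carry a mean. Internal regions outside genes summed to 58.9 ± 20.1 in the DMSO libraries (SD, n = 5) and to 351 ± 443 in the TBT libraries (SD, n = 7; 26.2 to 1070), a log2 ratio of 2.58. Without the TBT libraries 7 and 8 the TBT sum was 94.2 ± 52.9 (SD, n = 5; 26.2 to 163) against 41.9 to 81.7 in DMSO, a log2 ratio of 0.68 with overlapping groups, and for LTRs outside genes 1.98 became 0.35. Over all loci the internal total had a log2 ratio of 0.28, and 0.07 without these 2 libraries, and the LTR total 0.08 and 0.05.

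**Figure D4:**
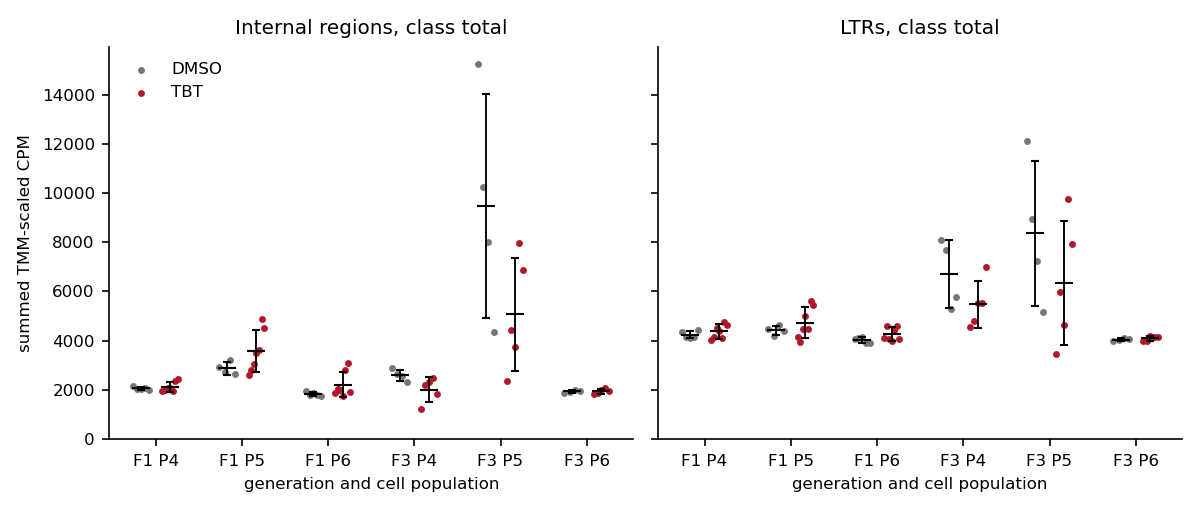
Summed level (TMM-scaled CPM) of MMERVK10 and RLTR10 internal regions and LTRs over all loci in each library, by population, generation and exposure of the F0 dam, with lines at the mean and bars of 1 SD. The DMSO and TBT points overlap in every population, and the internal totals of F3 P5 spread most, with 9458 ± 4547 (DMSO) and 5070 ± 2295 (TBT).

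The member with the smallest unadjusted p of each population shows the size of what did not pass. In F1 P4, the RLTR10D2 LTR at chr9:51668959-51669314 had 0.774, 0, 0, 0 and 0.915 in the DMSO libraries and 1.54 to 3.64 (median 1.90) in the TBT libraries, with no overlap and a difference of 2.38 (SE 0.55, adjusted p = 0.582). In F1 P5, RLTR10-int at chr1:100272234-100272445, antisense in an intron of Cntnap5b, a gene of neuronal cell adhesion, had 0, 0, 0.344 and 0.336 against 0.869 to 7.09 (median 1.65), with no overlap and a difference of 2.87 (SE 0.59, adjusted p = 0.137). In F1 P6, RLTR10F at chr8:20016181-20016494 had 2.08, 2.40, 2.08, 4.05 and 1.72 against 0.339 to 2.44 (median 0.657), and the groups overlapped (-1.27, adjusted p = 0.999).

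In F3 the corresponding loci were lower in the TBT libraries. In P4, RLTR10E at chr15:81975168-81975478 had 13.8, 10.3, 4.67 and 2.10 in the DMSO libraries and 0, 0.679, 0.166, 0 and 0 in the TBT libraries, with no overlap and a difference of -4.18 (SE 1.04, adjusted p = 0.870). In P5, MMERVK10C-int at chr18:83668113-83668380 had 18.7, 20.1, 12.3 and 1.39 against 0, 0.586, 0, 0.642 and 0.401, with no overlap and a difference of -4.12 (SE 1.36, adjusted p = 1.00). In P6, MMERVK10C-int at chr5:114822402-114822894, over an exon of 1500011B03Rik, had 111, 128, 120 and 141 against 98.3, 97.4, 93.2, 94.8 and 109, with no overlap and a difference of -0.34 (SE 0.09, adjusted p = 0.269).

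MBD-seq asked whether methylated DNA of P6 cells differed with exposure. The tables list read counts in windows of 100 bp, of which 430 overlapped a member by at least 50 bp in F1 and 484 in F3, so most members have no window here. Member windows had higher CPM than windows in other LTR-class loci. Library means were 10.6 to 12.5 CPM in F1 and 10.6 to 16.4 in F3, against 6.01 to 6.41 and 5.81 to 6.46 in the others. The libraries of the 2 sets did not overlap. These levels were not set against an input library, so DNA copy number, read placement and capture of methylated DNA cannot be told apart.

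In internal members and in other LTR-class loci, windows with more CpG sites had higher levels, and member LTRs were high even where a window held none. In F1 the medians for member LTRs were 11.4, 10.7, 13.3 and 14.6 CPM in windows with 0, 1, 2 and 3 or more CpG sites, those for internal members 6.33, 8.05, 11.01 and 13.1, and those for other LTR-class loci 3.11, 5.48, 9.15 and 13.1. In F3 they were 11.1, 14.5, 18.0 and 18.0 for member LTRs, 5.58, 8.84, 13.5 and 17.9 for internal members and 2.00, 4.67, 8.94 and 15.4 for the others. Member LTRs lay above other LTR-class loci of the same CpG class, with the largest ratio in windows with 0 CpG sites, and their own median did not rise at each step in F1.

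**Figure D5:**
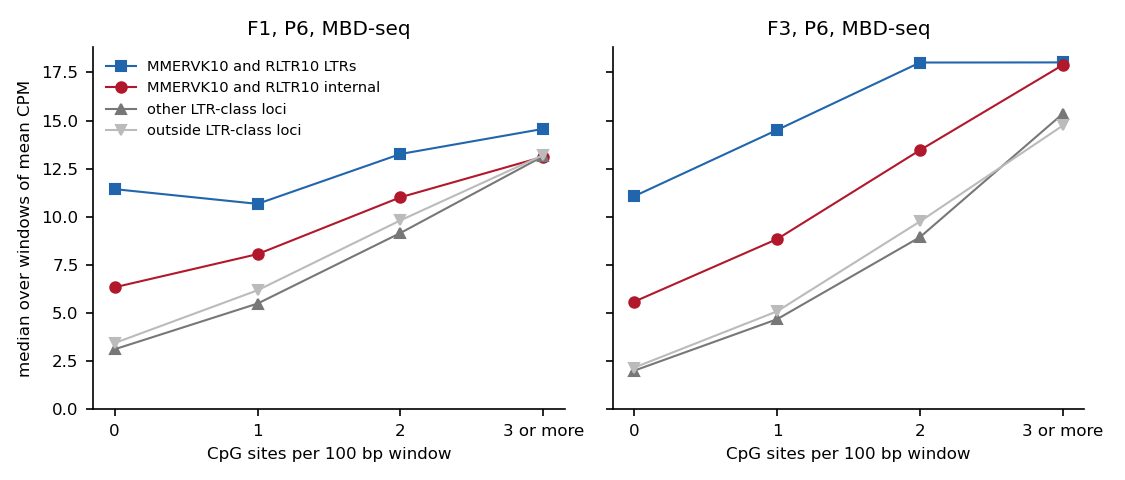
Median MBD-seq level (mean CPM over libraries) of 100 bp windows by their number of CpG sites (0, 1, 2, and 3 or more) in member LTRs, internal members, other LTR-class loci and windows outside LTR-class loci, with F1 and F3 in separate panels. Member LTRs start at 11.4 and 11.1 in windows with 0 CpG sites, where other LTR-class loci have 3.11 and 2.00.

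Exposure made no difference that passed the test. With edgeR's quasi-likelihood test, 0 of 245 member windows tested passed an FDR of 0.05 in F1 (0.0318% of all windows passed) and 0 of 331 in F3 (0% of all passed), with 15 and 14 at an unadjusted p under 0.05. DESeq2 called 0 in both, and the median differences were 0.02 and 0.06 on the log2 scale, beside 0.0018 and 0.0056 over all windows. The window with the smallest p in F1, chr13:60263501-60263600 in an RLTR10D LTR with 3 CpG sites, had counts of 20, 14 and 19 in the DMSO libraries and 41, 45, 27 and 78 in the TBT libraries, a difference of 0.62 (adjusted p = 0.937). In F3 it was chr14:51218201-51218300 in MMERVK10C-int, with 4 CpG sites and counts of 19, 22, 28, 20 and 16 against 30, 25, 27, 23, 34, 34 and 38, a difference of 0.54 (adjusted p = 0.914). These counts are raw, and the library totals ran from 701493 to 1913353 reads.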

How the data were processed

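RNA of sorted P4, P5 and P6 cells was converted to cDNA with oligo(dT) priming and sequenced in pairs. Per the labels and the study's methods, the authors trimmed reads with Trim Galore, aligned them to GRCm38/mm10 with STAR, counted them at RepeatMasker LTR loci with a modified ERVmap and scaled them by TMM in edgeR. Versions and the treatment of reads that match several loci are not given in the sources used here. The deposited RNA values are a signal, reads scaled to a common library total with edgeR's TMM factors (CPM), and whole reads could be recovered from 100% of values within a tolerance of 0.001. The deposited MBD-seq values are raw read counts per window of 100 bp, and the deposited CpG number per window (another quantity, in a column named CF) was used as given. There were 0 value columns without a sample.

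The value of 1 read, set to the median across libraries of each library's lowest nonzero value, was added before taking log2. Loci with a mean of at least 5 such units were tested with limma 3.58.1 (R 4.3.3), with Benjamini-Hochberg adjustment over all loci and an FDR of 0.05. MBD-seq counts were tested with edgeR 4.0.16, and DESeq2 1.42.0 was an alternative. Species totals were tested over all species. Genes, windows and sequences were read with Python 3.11.15, pandas 2.3.3, numpy 2.4.6, pyfaidx 0.9.0.4 and bedtools 2.31.1 on GRCm38. Element direction was set from the polypurine tract GGGGGAGA at the end of internal regions and passed on to adjoining LTRs. The tests across loci and windows were tested on simulated data. Depth was 246520 to 8161548 recovered reads per RNA library, and intervals from them would cover counting error only.

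Named loci were, for each exposure comparison, the member past the FDR or else the 1 with the smallest p; for P5 against P4, of the members past the FDR whose libraries did not overlap, the 3 risen and 3 fallen ones that changed most; for each population, the 3 internal regions and 3 LTRs outside genes with the highest level per kb and at least 200 bp; and the MBD-seq window with the smallest p. The members, lists and tests were chosen with earlier results of these data known. The study's methods call the MBD-seq samples independently generated. No source used here says so of the RNA libraries, so their p-values measure the spread between libraries, which may be technical, and F1 germline libraries that share a leading label number may not be independent. No 2 libraries of a group agreed within sampling noise. Alternatives were other pseudocounts, no filter and a stricter filter, a common total, edgeR and DESeq2, DMSO libraries alone, loci outside genes alone, the label number as a block, and leaving out libraries.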

Additional observations from a re-analysis of the deposited data

Results flagged for a closer look

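A library far from the rest was looked for in 75 groups of 4 to 10 libraries. The values checked were totals of 4 species, class levels per kb outside genes and mean MBD-seq levels of member windows. Of these groups 2 had such a library, and chance would give about 1 in 20. The summed level of RLTR10C in the F1 P6 TBT libraries was 1575 TMM-scaled CPM in TBT 11, while the other 6 ran from 1225 to 1353. The summed level of MMERVK10D3_LTR in the F3 P4 TBT libraries was 334 in TBT 9, which had fewer than 2000000 reads, while the other 4 ran from 62.5 to 98.9. No species total separated the exposures in opposite directions in F1 and F3.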

How the results depend on the processing

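Of 295 values under other settings than leaving out 1 library, 256 kept their direction and their side of the threshold, or stayed within 1.5 times of the count. The cause of the changes was not tested. Of members past the FDR between exposures, 0 in limma, edgeR's likelihood ratio test gave 2 in F1 P4, 14 in F1 P5, 1 in F1 P6 and 78 in F3 P5, DESeq2 gave 1 in F1 P5, and no filter on low values gave 48 in F1 P5, where more loci enter the fit. Between P5 and P4, DMSO libraries alone, which are fewer, gave 117 members in F1 (12.4% of all loci) and 19 in F3 (0.145% of all), edgeR's quasi-likelihood test gave 415 in F3 (5.05% of all), and leaving out the libraries under 2000000 reads gave 311 in F3 (3.65% of all) and 211 for internal regions outside genes, where the second was chosen after seeing the data.

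Log2 differences of species totals between exposures changed sign under some settings. With a common total they were -0.0506 for MMERVK10C-int, -0.0512 for MMERVK10D3_I-int and -0.0465 for RLTR10C in F1 P4, -0.0067 for RLTR10C in F1 P5, 0.0235 for MMERVK10D3_I-int and 0.40 for MMERVK10D3_LTR in F3 P4, and 0.0013 for RLTR10C in F3 P6. Between exposures, all settings but the one outside genes were compared with the main fit for 4 of the 13 species. Sign changes of the other species under those settings are not listed here. With loci outside genes alone the differences were -0.022 for MMERVK10C-int and -0.23 for RLTR10C in F1 P4, and -0.48 for MMERVK10D3_I-int and -0.34 for MMERVK10D3_LTR in F3 P6. Over all 13 species that setting turned the sign of 6 in F1 P4 (RLTR10-int from 0.07 to -0.32 among them), 2 in F1 P6, 10 in F3 P6 (RLTR10-int from 0.06 to -0.50, RLTR10 to -0.16, RLTR10E to 0.46) and 0 in the other 3 populations. MMERVK10D3_LTR in F3 P4 had 0.17 in edgeR's quasi-likelihood test. Between P5 and P4 in F1, RLTR10C turned to 0.13 with a common total and to 2.16 outside genes, and MMERVK10D3_I-int had 0.22 in DMSO libraries alone and no longer passed, like RLTR10B2 with 0.14. In F3, MMERVK10D3_I-int passed with 0.74 at a common total and with 0.50 without the libraries under 2000000 reads, and RLTR10C passed with 0.42 at a common total and 2.14 outside genes. Class totals outside genes had log2 ratios of 0.36 (LTRs, F1 P5), 2.58 and 1.98 (internal regions and LTRs, F1 P6; 0.68 and 0.35 without TBT libraries 7 and 8, chosen after seeing the data) and -0.30 and -0.0871 (F3 P6), and at a common total -0.0027 and 0.20 in F3 P4.

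Leaving out 1 library at a time left 665 of 698 values on their side. Members past the FDR in F1 P5 ran from 0 to 4 (4 without DMSO 43-5, 1 without DMSO 43-4 and 1 without DMSO 44-1). Between P5 and P4 in F3 they ran from 97 to 335, with 335 without P5 TBT 5, 97 without P4 DMSO 3, 109 without P5 TBT 9 or P4 DMSO 4, 117 without P4 DMSO 2, 119 without P4 DMSO 1 and 120 without P4 TBT 7. Species differences between exposures ran from -0.0176 to 0.0548 (MMERVK10C-int) and -0.03 to 0.0948 (MMERVK10D3_I-int) in F1 P4, -0.0114 to 0.0549 (RLTR10C) in F1 P5, -0.39 to 0.26 (MMERVK10D3_LTR) in F3 P4, -0.62 to 0.0152 (RLTR10C) in F3 P5, and -0.0301 to 0.17 (MMERVK10D3_I-int) and -0.0195 to 0.0113 (RLTR10C) in F3 P6. Between P5 and P4 in F3 they ran from 0.33 to 0.65 (MMERVK10D3_I-int) and from -0.014 to 0.34 (RLTR10C). In F3 P5 the class totals between exposures ran from -1.14 to -0.57 (internal regions) and -0.61 to -0.16 (LTRs), with the value nearest 0 without DMSO 1. Outside genes, with libraries left out as chosen after seeing the data, they ran from -1.39 to -0.69 and -1.09 to -0.41, and in F1 P5 from 0.38 to 0.62 and 0.25 to 0.45.

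P4 and P5 libraries share label numbers. Deviations of same-numbered libraries correlated at -0.01 to 0.50 in F1 and -0.20 to 0.58 in F3, and 5 of 11 and 2 of 9 correlated best with their own number, so the libraries share a number and are not treated as paired. With the number as a replicate block, 431 members passed in F1 and 235 in F3. RLTR10B then passed in F1 with -0.15 (limma, adjusted p = 0.0018).

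Depth limits what can be seen: 1 F3 P5 library had 246520 reads, and a count of 0 allows up to 3 reads. Reads of loci with few unique windows can also match near-identical copies, so single-locus values of RLTR10, RLTR10-int and RLTR10C are uncertain. The files give no strand, so RNA of a member and of an overlapping gene cannot be told apart.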
